A study of Mus musculus with 9 samples.

Results

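A set of 41 genes that encode parts of the sarcomere and Z-disc of heart muscle, or proteins that bind, build or remove them, were described in mouse heart. They were taken by gene symbol from a table of FPKM values (fragments per kilobase of transcript, relative to all mapped fragments of a library), which held 41 of 41 listed symbols among 29237 genes. The hearts came from wild-type C57BL/6 mice of 8 to 12 weeks, and polyadenylated RNA was sequenced as 9 libraries in 3 groups of 3. The TPTN group is called a TPTN-treated group in the design text, the DOX group is called a DOX model group under a title on dilated cardiomyopathy caused by doxorubicin, and the Control group is called normal. Doxorubicin is an anthracycline cancer drug with known toxicity to heart muscle. The labels do not expand TPTN, leave unsaid if doxorubicin was also given to the TPTN mice, and name no dose or day. No label ties the 3 libraries of a group to different animals, so every p-value here reflects only how these libraries vary, which may be technical.

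The sarcomere is the contractile unit of striated muscle, in which thick filaments of myosin slide along thin filaments of actin. Thin filaments carry tropomyosin and the troponin complex, which gate contraction by calcium, and they are anchored in the Z-disc. Titin spans from the Z-disc to the M-band, where thick filaments are linked to each other. In the adult mouse ventricle the alpha heavy chain Myh6 prevails, and a shift towards isoforms used before birth, such as Myh7 and Acta1, is a well-known feature of many failing or overloaded hearts.

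Cardiomyocyte genes were abundant in every library: Ryr2, Atp2a2, Pln, Ckm, Mb and Nkx2-5 together reached 8151 to 9110 FPKM in TPTN libraries, 8021 to 8987 FPKM in DOX libraries and 8458 to 9102 FPKM in Control libraries. Of these 6 genes, Ryr2 passed the test as lower in DOX than in Control hearts, as did 0.4% of all tested genes. Markers of skeletal muscle summed to at most 2.26 FPKM in any library. One library stood apart. In DOX replicate 1 the 11 atrial markers summed to 2662 FPKM, against 310 and 215 FPKM in the other DOX libraries, 72.2 to 139 FPKM in TPTN libraries and 69.9 to 167 FPKM in Control libraries. The atrial light chain Myl7 reached 539 FPKM there and at most 0.889 FPKM elsewhere, and Sln reached 85.3 FPKM there and at most 0.0693 FPKM elsewhere. Nppa made up most of the sum in every library. It stood at 288 and 195 FPKM in DOX replicates 2 and 3, so their higher sums mainly follow this gene. Changes of single genes, isoform shares and counts of calls among the 41 that rest on DOX libraries are therefore also given without DOX replicate 1. Mitochondrially encoded transcripts took 48.1 to 48.7% of the FPKM sum in TPTN libraries, 44.7 to 46.2% in DOX libraries and 49.8 to 50.9% in Control libraries, which moves the FPKM of every other gene the opposite way. Depth could not be established from these values. An estimate from low values rested on a guessed worth of 1 read, which at most 10.8% of low values matched in any library.

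Few of the sarcomere and Z-disc genes passed the test: Myl2 and Tnni3 in DOX against Control, Myh7b and Mypn in TPTN against DOX, and Xirp1 in TPTN against Control hearts. A change is given as the difference of mean log2(FPKM + 1), tested with limma over 12500 genes with a mean of at least 0.5 FPKM, with a Benjamini-Hochberg adjusted p under 0.05 as the threshold. Of the 41 genes, 40 passed this filter, and Tnni1 did not. In DOX against Control hearts, Myl2 and Tnni3 were higher and 0 of 40 were lower, where 2.63% of all tested genes passed (2.23% higher and 0.4% lower). The median change of the 40 was 0.08, beside 0.04 over all tested genes. Of the 40, 28 were positive and 12 negative, and over all tested genes 7846 and 4654 were. In TPTN against DOX hearts, Myh7b and Mypn were higher and 0 were lower, where 3.26% of all tested genes passed (0.792% higher and 2.46% lower), and the median was -0.01 for the 40 and -0.01 for all genes. In TPTN against Control hearts, Xirp1 was higher and 0 were lower, where 0.72% of all tested genes passed (0.336% higher and 0.384% lower), and the median was 0.06 for the 40 and 0.04 for all genes. These comparisons share libraries: DOX enters the first 2 and TPTN the last 2.

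At an unadjusted limma p under 0.05, 13 of the 40 lay higher and 4 lower in DOX hearts relative to Control hearts. Of all tested genes, 18.0% lay under that p (1822 higher and 434 lower). Between TPTN and DOX hearts these counts were 7 higher and 12 lower, where 20.6% of all genes did (972 higher and 1609 lower). In TPTN against Control hearts they were 7 higher and 1 lower, where 13.1% of all genes did (1127 higher and 515 lower). All 3 DOX libraries lay above all 3 Control libraries for 11 genes and below them for 4. Of all tested genes, 22.8% had groups that did not overlap (2209 higher and 637 lower). All 3 TPTN libraries lay above all 3 DOX libraries for 9 genes and below them for 11. Of all genes, 24.5% did not overlap (1300 higher and 1757 lower). All 3 TPTN libraries lay above all 3 Control libraries for 11 genes and below them for 3. Of all genes, 21.3% did not overlap (1903 higher and 754 lower).

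**Figure D1:**
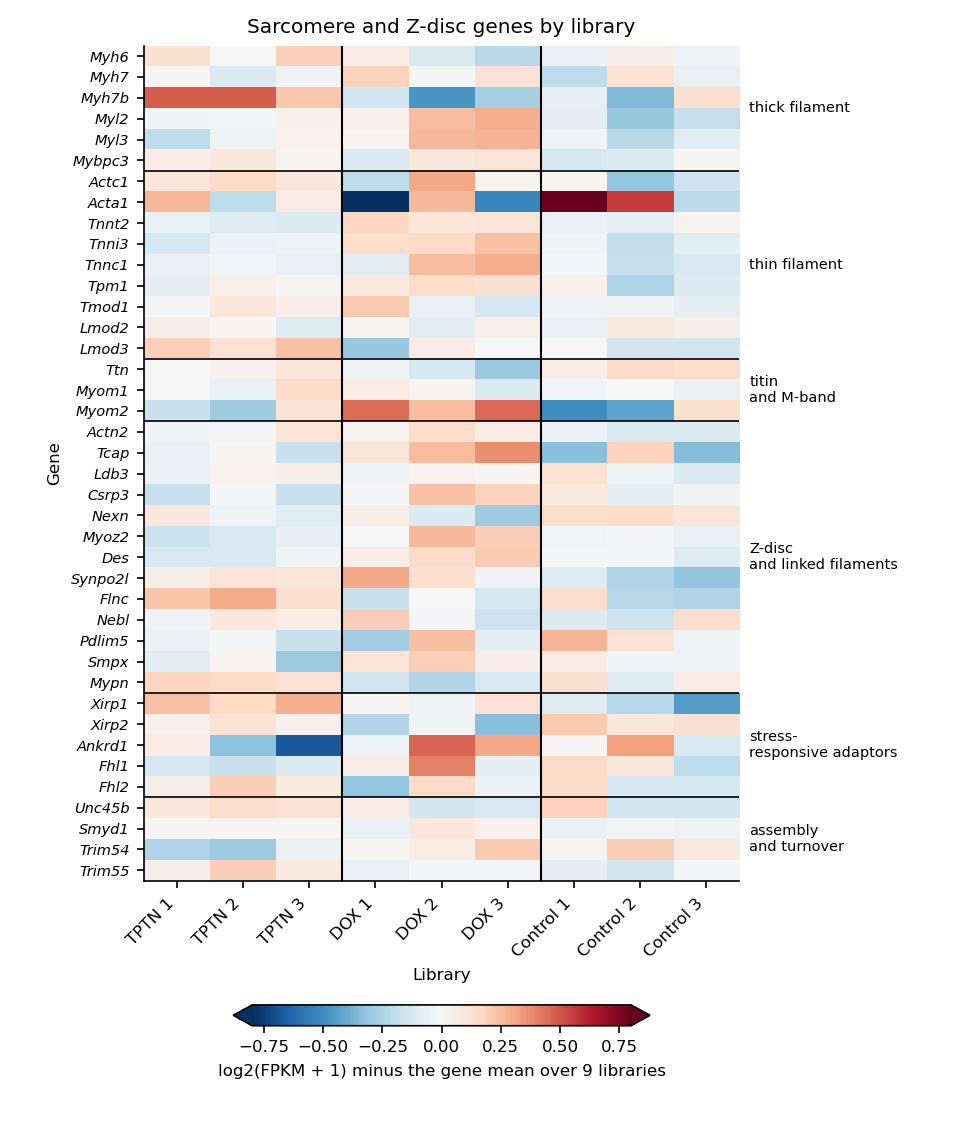
Each row is one of the 40 tested genes, ordered by role, and each column one library; colour gives log2(FPKM + 1) minus that gene's mean over the 9 libraries, and the pointed ends of the colour bar hold values beyond 0.8. Myh7b is high in the 3 TPTN libraries, Myom2 in the 3 DOX libraries, and Acta1 spreads widely within DOX and Control.

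The direction of the DOX comparison depended on the scaling. With mitochondrial genes and 7 abundant pseudogenes on chromosome 1 that copy them left out of the library sum, the median change of all tested genes in DOX against Control hearts was -0.07 in place of 0.04. On that scale the median of the 40 was -0.08, 0 genes were higher, and Mypn, Xirp2 and Ttn were lower (log2 changes of -0.35, -0.50 and -0.43). Over all tested genes it called 61 higher and 209 lower (2.16%), in place of 279 higher and 50 lower. In TPTN against DOX hearts the same scale called 7 of the 40 higher (Myh7b, Mypn, Flnc, Lmod3, Xirp2, Trim55 and Ttn) and 0 lower, with 542 higher and 129 lower over all genes (5.37%), in place of 99 higher and 308 lower. Median ratios called Xirp2 and Ttn lower in DOX against Control hearts, and quantile normalization called Xirp2 lower. Over all genes in that comparison, median ratios called 110 higher and 63 lower (1.38%), and quantile normalization 76 higher and 67 lower (1.14%). Together the 41 genes took 3.67% ± 0.0855 of the FPKM sum in TPTN, 3.88% ± 0.235 in DOX and 3.20% ± 0.144 in Control libraries (SD, n = 3 each). Without the mitochondrial genes and copies in the sum, the shares were 11.2% ± 0.160, 10.7% ± 0.596 and 10.6% ± 0.272 in the same order. On that second scale, DOX and Control differed by less than the spread between DOX replicates. In bulk tissue, a different number of cardiomyocytes and a different amount of RNA per cardiomyocyte cannot be told apart.

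Without DOX replicate 1, limma called 4 genes in DOX against Control hearts: Myl2, Myl3 and Tnnc1 were higher and Ttn was lower (adjusted p of 0.0308, 0.0490, 0.0308 and 0.0487). Over all tested genes this fit called 257 higher and 57 lower (2.51%). In TPTN against DOX hearts it called 5: Myh7b was higher, and Myoz2, Tnnc1, Des and Csrp3 were lower (adjusted p of 0.0355, 0.0304, 0.0379, 0.0466 and 0.0492), where 162 of all tested genes were higher and 306 lower (3.74%). At an unadjusted limma p under 0.05, 16 of the 40 were then higher and 4 lower in DOX against Control hearts. Beside this stood 19.4% of all genes (1700 higher and 723 lower). In TPTN against DOX hearts 8 were higher and 12 lower, beside 24.6% of all genes (1480 higher and 1592 lower). Tnni3 and Mypn then missed the threshold, at adjusted p of 0.0553 in DOX against Control and 0.0533 in TPTN against DOX hearts. The part of atrial tissue in these differences was not tested.

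The following sequences are the 300 bases around the RefSeq start, 250 before and 50 after it, for the genes called in TPTN against DOX hearts, Myh7b and Mypn, and for the actin pair Acta1 and Actc1, whose balance is described further on. They are from RefSeq on GRCm38.p6 and read 5′ to 3′ on the gene's strand. Capitals mark short motifs found on either strand: the TATA box (TATAAA), the GATA motif (AGATAA), the MCAT motif (CATTCC) and the CArG box, the binding element of serum response factor. The Myh7b window is chr2:155610993-155611292 (plus strand), the Mypn window chr10:63203903-63204202 (minus strand), the Acta1 window chr8:123894726-123895025 (minus strand) and the Actc1 window chr2:114052826-114053125 (minus strand).
Myh7b: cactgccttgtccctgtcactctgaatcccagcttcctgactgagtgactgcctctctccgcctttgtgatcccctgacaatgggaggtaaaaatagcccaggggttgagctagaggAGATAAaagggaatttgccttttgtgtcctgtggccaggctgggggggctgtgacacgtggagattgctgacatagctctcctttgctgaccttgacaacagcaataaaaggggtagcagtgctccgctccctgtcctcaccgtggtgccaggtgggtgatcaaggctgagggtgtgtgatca
Mypn: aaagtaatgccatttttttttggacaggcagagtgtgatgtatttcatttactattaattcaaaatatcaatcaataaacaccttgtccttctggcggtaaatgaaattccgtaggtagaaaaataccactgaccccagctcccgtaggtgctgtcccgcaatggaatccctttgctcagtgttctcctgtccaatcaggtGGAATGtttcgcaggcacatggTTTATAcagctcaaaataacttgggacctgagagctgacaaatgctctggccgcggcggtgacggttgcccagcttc
Acta1: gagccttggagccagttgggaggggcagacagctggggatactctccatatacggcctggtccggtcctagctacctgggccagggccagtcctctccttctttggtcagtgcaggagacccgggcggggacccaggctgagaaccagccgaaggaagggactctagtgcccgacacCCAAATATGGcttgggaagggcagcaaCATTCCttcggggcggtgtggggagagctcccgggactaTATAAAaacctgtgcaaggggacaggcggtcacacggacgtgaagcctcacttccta
Actc1: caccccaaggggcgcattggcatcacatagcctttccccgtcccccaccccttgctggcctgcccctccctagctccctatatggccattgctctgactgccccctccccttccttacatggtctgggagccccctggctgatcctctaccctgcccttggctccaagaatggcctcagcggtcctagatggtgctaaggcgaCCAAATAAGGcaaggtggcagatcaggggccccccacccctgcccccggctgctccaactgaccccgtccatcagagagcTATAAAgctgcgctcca
The Myh7b window held a single match, the GATA motif, at -133 to -128 (positions relative to the RefSeq start). The Mypn window held MCAT and TATA on the opposite strand, at -49 to -44 and -27 to -22. The Acta1 window held a CArG box at -73 to -64, an MCAT motif at -46 to -41 and a TATA box at -7 to -2. The Actc1 window held a CArG box at -47 to -38 and a TATA box at 33 to 38, and its RefSeq start lies 673 bases from the outermost GENCODE start of the gene.

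RefSeq windows were matched by symbol for 35 of the 41 genes, as 49 windows among 32851 of all genes. A CArG box was found in 10 of the 49 windows (20.4%, in 8 genes), beside 1.63% of all windows, and an MEF2 site in 7 (14.3%, in 6 genes), beside 3.19%. The 8 genes with a CArG box were Acta1, Actc1, Fhl1, Fhl2, Ldb3, Myl3, Myom1 and Nebl. MCAT was found in 15 windows (30.6%, beside 14.7%), GATA in 9 (18.4%, beside 11.2%) and TATA in 9 (18.4%, beside 13.6%). Windows of one gene can overlap, and the 2 windows of Ldb3 each show a CArG box with the same letters. Motifs can overlap too, as the TATA and MEF2 matches of Fhl2 do. A match is a description of the letters and not a measured binding site, and these shares carry no test.

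Among thick filament genes, Myh7b, the lowest of them, had the largest change in both TPTN comparisons, and Myl2 had it in DOX against Control hearts. Myh7b (chromosome 2, 155611212 to 155634307) encodes a slow-type myosin heavy chain found at low level in heart. It stood at 14.2, 14.2 and 11.6 FPKM in TPTN hearts, against 8.75, 6.85 and 8.03 FPKM in DOX hearts and 9.35, 7.49 and 10.9 FPKM in Control hearts. Every TPTN library was above every other library, while DOX and Control overlapped. The change was 0.69 in TPTN against DOX hearts (SE 0.13, limma adjusted p = 0.0273), 0.76 without DOX replicate 1, and 0.49 in TPTN against Control hearts (SE 0.13, limma adjusted p = 0.134). The first was positive in each of 20 other settings, from 0.60 to 0.81, and past the threshold in 13 of them, with adjusted p from 0.0141 to 0.163. Here and for the genes below, several of the 20 settings alter the p but cannot alter the change. A kept sign in those settings was fixed in advance. Among the 20, the call was lost without DOX replicate 2 or 3 or without any single TPTN library, with changes of 0.60 to 0.78 and a limma adjusted p of at most 0.0958 over the 9 libraries left out in turn.

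Myl2 (chromosome 5, 122100951 to 122113472) encodes the regulatory light chain of the ventricle and had the highest mean of the thick filament genes, 2374 FPKM. It stood at 2308, 2322 and 2413 FPKM in TPTN hearts, 2426, 2792 and 2887 FPKM in DOX hearts and 2240, 1908 and 2071 FPKM in Control hearts. The 3 groups did not overlap, and the lowest DOX value was that of replicate 1, the library rich in atrial markers. Myl2 was higher in DOX than in Control hearts by 0.38 (SE 0.08, limma adjusted p = 0.0339), and by 0.46 without DOX replicate 1. The change stayed positive in 20 other settings, from 0.21 to 0.46, and past the threshold in 6 of them, with adjusted p from 0.0260 to 0.195. The call was lost without replicate 2 or replicate 3 of any group, with changes of 0.32 to 0.46 and a limma adjusted p of at most 0.126 over the libraries left out in turn. In TPTN against DOX hearts it was -0.20 (SE 0.08, limma adjusted p = 0.184), and -0.27 without DOX replicate 1 (limma adjusted p = 0.0656). The essential light chain Myl3 averaged 1665 ± 134, 1994 ± 194 and 1621 ± 110 FPKM in TPTN, DOX and Control hearts (SD, n = 3 each), with a change of 0.30 in DOX against Control hearts (SE 0.09, limma adjusted p = 0.103), and 0.38 without DOX replicate 1.

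Myh6, the alpha heavy chain of adult mouse heart, stood at 2554, 2342 and 2688 FPKM in TPTN hearts, 2461, 2173 and 2018 FPKM in DOX hearts and 2274, 2438 and 2285 FPKM in Control hearts. Myh7, the beta heavy chain, stood at 72.0, 65.6 and 69.8 FPKM in TPTN hearts, 81.3, 70.4 and 77.3 FPKM in DOX hearts and 61.7, 77.1 and 68.5 FPKM in Control hearts. Groups overlapped for both genes in every comparison. They are neighbours on chromosome 14 with nearly the same coding sequence, so how their shared reads were split is uncertain. Mybpc3, the cardiac myosin-binding protein C, averaged 611 ± 14.0 FPKM in TPTN, 601 ± 49.4 FPKM in DOX and 558 ± 32.3 FPKM in Control hearts (SD, n = 3 each).

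The share of Myh7 in the sum of Myh6 and Myh7 FPKM does not depend on the library's scaling. It was 2.74, 2.72 and 2.53% in TPTN hearts, 3.20, 3.14 and 3.69% in DOX hearts and 2.64, 3.07 and 2.91% in Control hearts. The DOX share was above every TPTN and every Control share, and TPTN overlapped Control. The means were 2.67% ± 0.116 in TPTN, 3.34% ± 0.303 in DOX and 2.87% ± 0.215 in Control hearts (SD, n = 3 each). The share was 0.467 percentage points higher in DOX than in Control hearts and -0.675 points in TPTN against DOX hearts, each with an exact two-sided permutation p of 0.1. With 3 against 3 libraries, 0.1 is the smallest p that this exact test allows, and over the 9 share comparisons made it becomes 0.3 after Benjamini-Hochberg adjustment. In TPTN against Control hearts the difference was -0.208 points (exact permutation p = 0.3, adjusted 0.386). Without DOX replicate 1 the differences were 0.540 points in DOX against Control and -0.747 points in TPTN against DOX hearts (exact permutation p = 0.2 for each, the smallest that 2 against 3 libraries allow). Leaving out any one library kept the 3 directions.

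In the thin filament, the inhibitory troponin of adult heart was the gene that passed the test. Tnni3 (chromosome 7, 4518305 to 4524229) stood at 984, 1052 and 1053 FPKM in TPTN hearts, 1201, 1210 and 1277 FPKM in DOX hearts and 1061, 953 and 1024 FPKM in Control hearts. DOX lay above both other groups without overlap, and TPTN overlapped Control. Tnni3 was higher in DOX than in Control hearts by 0.28 (SE 0.06, limma adjusted p = 0.0412). This was positive in 20 other settings, from 0.10 to 0.31, and past the threshold in 4 of them, with adjusted p from 0.0337 to 0.300. Leaving out single libraries gave changes of 0.24 to 0.31 and limma adjusted p of 0.0447 to 0.146, and the call was kept only without TPTN replicate 1. The change in TPTN against DOX hearts was -0.26 (SE 0.06, limma adjusted p = 0.0506). Without DOX replicate 1 the changes were 0.30 in DOX against Control and -0.27 in TPTN against DOX hearts.

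Tnni1, the troponin I of fetal heart and slow muscle, was nearly absent, with 0.0141, 0.0173 and 0.0511 FPKM in TPTN hearts, 0.353, 0.0611 and 0 FPKM in DOX hearts and 0.0138, 0.0161 and 0 FPKM in Control hearts. The highest value was in DOX replicate 1. Its share of Tnni1 plus Tnni3 FPKM was at most 0.0294% in any library, and the exact permutation p was 0.4 in DOX against Control, 0.6 in TPTN against DOX and 0.3 in TPTN against Control hearts. In the first pair of these the exact permutation p was 0.8 and 1.0 without DOX replicate 1.

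Actc1 encodes cardiac actin and had the highest mean of all 41 genes, 3949 FPKM. It stood at 4163, 4377 and 4167 FPKM in TPTN hearts, 3407, 4845 and 3977 FPKM in DOX hearts and 3957, 3164 and 3486 FPKM in Control hearts. TPTN lay above Control without overlap, and DOX spanned both. Acta1, the skeletal actin that the heart uses mainly before birth, stood at 170, 123 and 148 FPKM in TPTN hearts, 66.5, 170 and 98.1 FPKM in DOX hearts and 257, 209 and 122 FPKM in Control hearts. All groups overlapped, and Acta1 had the largest spread between replicates of the 40 genes, 0.52 on the log2 scale. Its change in DOX against Control hearts was -0.85 (SE 0.40, limma adjusted p = 0.339), and -0.53 without DOX replicate 1.

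As a share of Acta1 plus Actc1 FPKM, Acta1 took 3.93, 2.73 and 3.43% in TPTN hearts, 1.92, 3.38 and 2.41% in DOX hearts and 6.10, 6.20 and 3.39% in Control hearts. The highest DOX value fell just short of the lowest Control value, and TPTN overlapped both. The difference was -2.66 percentage points in DOX against Control hearts, with the smallest p this exact permutation test allows, 0.1 (0.3 after adjustment over the 9 comparisons). It was 0.792 points in TPTN against DOX hearts (exact permutation p = 0.2) and -1.87 points in TPTN against Control hearts (exact permutation p = 0.3). Without DOX replicate 1 it was -2.33 points in DOX against Control (exact permutation p = 0.2) and 0.465 points in TPTN against DOX hearts (exact permutation p = 0.4). The actins are close copies in their coding sequence, so shared reads leave both values uncertain. Skeletal muscle markers were near 0 in all libraries.

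**Figure D2:**
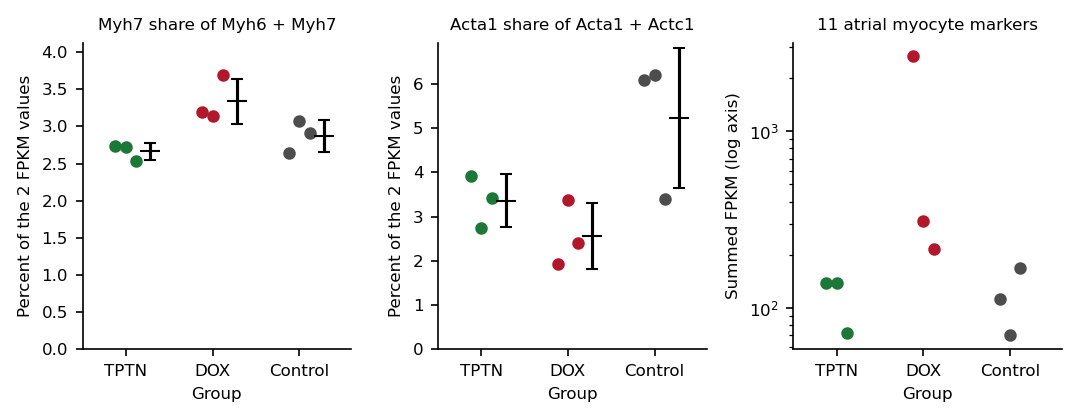
The left and middle panels show the Myh7 share and the Acta1 share in percent for each library (points), with the mean and SD of each group beside them; the right panel shows the summed FPKM of 11 atrial markers on a log axis. The DOX Myh7 shares sit above the others, the Control Acta1 shares split into 2 near 6% and 1 at 3.39%, and DOX replicate 1 is alone at 2662 FPKM of atrial markers. Nppa makes up most of the atrial sum in every library.

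Tnnt2, which ties the troponin complex to tropomyosin, stood at 616, 595 and 591 FPKM in TPTN hearts, 715, 683 and 686 FPKM in DOX hearts and 615, 610 and 647 FPKM in Control hearts. DOX was above both other groups without overlap. The change was -0.21 in TPTN against DOX hearts (SE 0.05, limma adjusted p = 0.0656) and 0.15 in DOX against Control hearts (SE 0.05, limma adjusted p = 0.165), and without DOX replicate 1 it was -0.19 and 0.13 in these comparisons. Tnnc1, the calcium-binding troponin C, stood at 1163, 1196 and 1162 FPKM in TPTN hearts, 1141, 1442 and 1485 FPKM in DOX hearts and 1204, 1068 and 1115 FPKM in Control hearts. DOX replicate 1 lay with the other groups and away from the other 2 DOX libraries. With that library the change was 0.26 in DOX against Control hearts (SE 0.09, limma adjusted p = 0.180), and without it 0.38 (limma adjusted p = 0.0308).

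The other thin filament genes did not pass the test. Tpm1, the main cardiac tropomyosin, averaged 857 ± 35.1 FPKM in TPTN, 934 ± 23.3 FPKM in DOX and 803 ± 79.6 FPKM in Control hearts (SD, n = 3 each). Lmod3, a leiomodin that promotes actin filament growth, averaged 31.1 ± 1.31, 26.0 ± 3.57 and 25.4 ± 1.72 FPKM in the same groups, and TPTN did not overlap either of the others. Tmod1, which caps the slow-growing end of thin filaments, and Lmod2, its relative at the same end, had changes between -0.03 and 0.09 in the 3 comparisons. When DOX replicate 1 was left out, the change of Tmod1 was -0.05 in DOX against Control and 0.14 in TPTN against DOX hearts, and that of Lmod2 was -0.04 and 0.01.

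**Figure D3:**
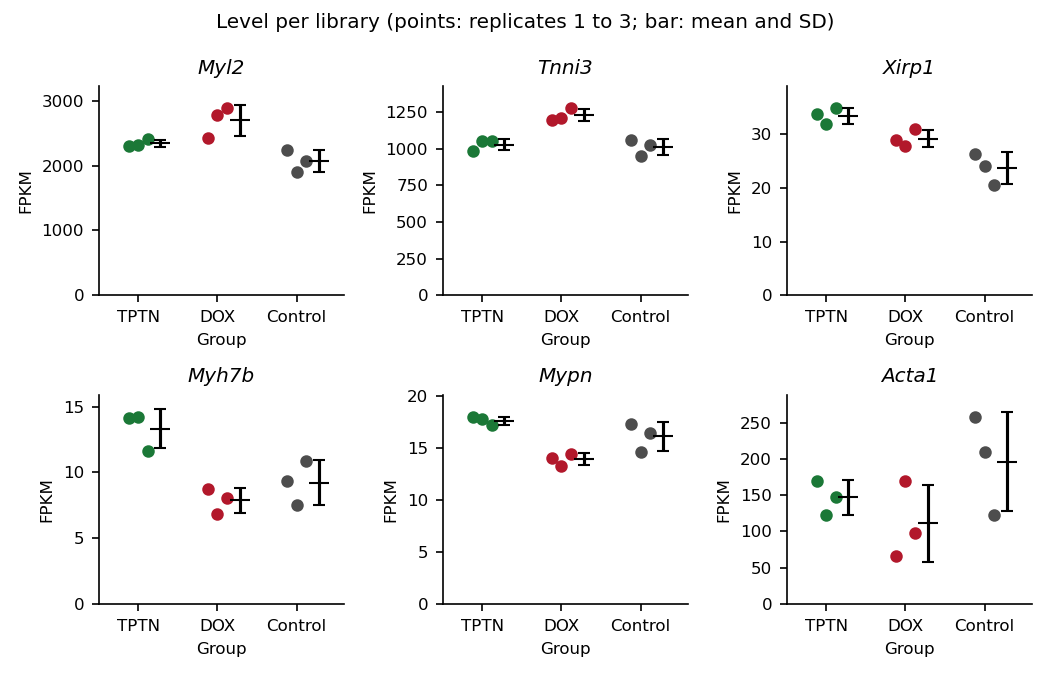
Each panel shows the FPKM of one gene in the 9 libraries (points, replicates 1 to 3), with the mean and SD of each group (n = 3) beside them and the axis starting at 0. Myl2 and Tnni3 are highest in DOX, and Xirp1 and Myh7b are highest in TPTN. Mypn is lowest in DOX, with TPTN and Control overlapping, and Acta1 overlaps between groups.

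Titin and the M-band gave no call, and they hold the most positive member of the DOX against Control comparison. Calls made up 2.63% of all tested genes there, 3.26% in TPTN against DOX and 0.72% in TPTN against Control hearts. Ttn, which encodes the elastic filament titin and has the longest transcript of the 41 genes, 106824 bases, stood at 22.1, 22.6 and 23.7 FPKM in TPTN hearts, 21.4, 19.9 and 17.8 FPKM in DOX hearts and 22.9, 24.6 and 24.4 FPKM in Control hearts. DOX was below both other groups without overlap. The change in DOX against Control hearts was -0.28 (SE 0.07, limma adjusted p = 0.0829), and -0.34 without DOX replicate 1 (limma adjusted p = 0.0487). Myom2, an M-band protein that links myosin filaments, stood at 70.1, 65.2 and 86.2 FPKM in TPTN hearts, 109, 94.4 and 109 FPKM in DOX hearts and 56.1, 59.0 and 87.2 FPKM in Control hearts. DOX lay above both other groups, yet Control replicate 3 was well above the other Control libraries. The change was 0.64 in DOX against Control hearts (SE 0.17, limma adjusted p = 0.0839) and -0.50 in TPTN against DOX hearts (SE 0.17, limma adjusted p = 0.137). These were 0.61 and -0.46 without DOX replicate 1. Myom1, its relative at the M-band, stood at 98.3, 94.4 and 109 FPKM in TPTN hearts, 102, 99.6 and 90.3 FPKM in DOX hearts and 96.5, 98.0 and 94.5 FPKM in Control hearts, and all groups overlapped.

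Of the 13 genes of the Z-disc and its linked filaments, 1 passed the test in any comparison. All tested genes passed at 2.63% in DOX against Control, 3.26% in TPTN against DOX and 0.72% in TPTN against Control hearts. Mypn (chromosome 10, 63115795 to 63203952) encodes myopalladin, which binds alpha-actinin and nebulin-type proteins at the Z-disc. It stood at 18.0, 17.8 and 17.2 FPKM in TPTN hearts, 14.1, 13.3 and 14.4 FPKM in DOX hearts and 17.3, 14.6 and 16.5 FPKM in Control hearts. DOX was below both other groups without overlap, and TPTN overlapped Control. Mypn was higher in TPTN than in DOX hearts by 0.32 (SE 0.07, limma adjusted p = 0.0386), and without DOX replicate 1 the change was 0.33. It was positive in 20 other settings, from 0.27 to 0.45, and past the threshold in 9 of them, with adjusted p from 0.0113 to 0.169. Leaving out single libraries gave changes of 0.29 to 0.35 and limma adjusted p of 0.0287 to 0.124, and the call was kept only without Control replicate 1 or 2.

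Synpo2l, an actin-binding Z-disc protein, stood at 17.0, 17.8 and 17.7 FPKM in TPTN hearts, 20.5, 18.2 and 16.1 FPKM in DOX hearts and 15.2, 13.8 and 13.0 FPKM in Control hearts. TPTN and DOX were both above Control without overlap. The change was 0.30 in TPTN against Control hearts (SE 0.09, limma adjusted p = 0.166) and 0.36 in DOX against Control hearts (SE 0.09, limma adjusted p = 0.0615), the second being 0.27 without DOX replicate 1 (limma adjusted p = 0.112). Tcap, the cap that binds the Z-disc end of titin, stood at 424, 443 and 388 FPKM in TPTN hearts, 470, 525 and 570 FPKM in DOX hearts and 348, 499 and 345 FPKM in Control hearts. Control replicate 2 lay inside the DOX range, and the change in DOX against Control hearts was 0.41 (SE 0.14, limma adjusted p = 0.155), and 0.48 without DOX replicate 1. Csrp3, the muscle LIM protein, stood at 224, 253 and 226 FPKM in TPTN hearts, 252, 300 and 288 FPKM in DOX hearts and 269, 241 and 250 FPKM in Control hearts, with overlap in every comparison. Its change in TPTN against DOX hearts was -0.26 (SE 0.08, limma adjusted p = 0.110), and -0.33 without DOX replicate 1 (limma adjusted p = 0.0492).

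Myoz2, a calsarcin that binds calcineurin at the Z-disc, averaged 173 ± 6.62 FPKM in TPTN, 211 ± 19.2 FPKM in DOX and 184 ± 3.19 FPKM in Control hearts (SD, n = 3 each). Des, the intermediate filament desmin, averaged 305 ± 11.4, 359 ± 19.3 and 316 ± 11.2 FPKM in the same order. Both had DOX above the other groups without overlap, with limma adjusted p of 0.0677 for Myoz2 and 0.0720 for Des in TPTN against DOX hearts. Their changes there were -0.28 and -0.23, and -0.35 and -0.28 without DOX replicate 1, where both passed the threshold. Nebl, the cardiac nebulin relative nebulette and the lowest gene of this group, stood at 9.75, 10.7 and 10.4 FPKM in TPTN hearts, 11.6, 9.89 and 8.80 FPKM in DOX hearts and 9.13, 8.78 and 11.1 FPKM in Control hearts. For Nebl and for Ldb3, a PDZ-LIM protein that binds alpha-actinin, all groups overlapped. Nexn, an actin-binding protein of the Z-disc, averaged 78.9 ± 5.27 FPKM in TPTN, 73.8 ± 8.78 FPKM in DOX and 87.0 ± 1.68 FPKM in Control hearts, and both TPTN and DOX lay below Control. Across the 13 genes, changes ran from -0.24 for Nexn to 0.41 for Tcap in DOX against Control hearts, from -0.32 for Tcap to 0.32 for Flnc in TPTN against DOX hearts, and from -0.19 for Pdlim5 to 0.33 for Flnc in TPTN against Control hearts. Leaving out DOX replicate 1, they ran from -0.32 for Nexn to 0.48 for Tcap in DOX against Control and from -0.39 for Tcap to 0.33 for Mypn in TPTN against DOX hearts.

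**Figure D4:**
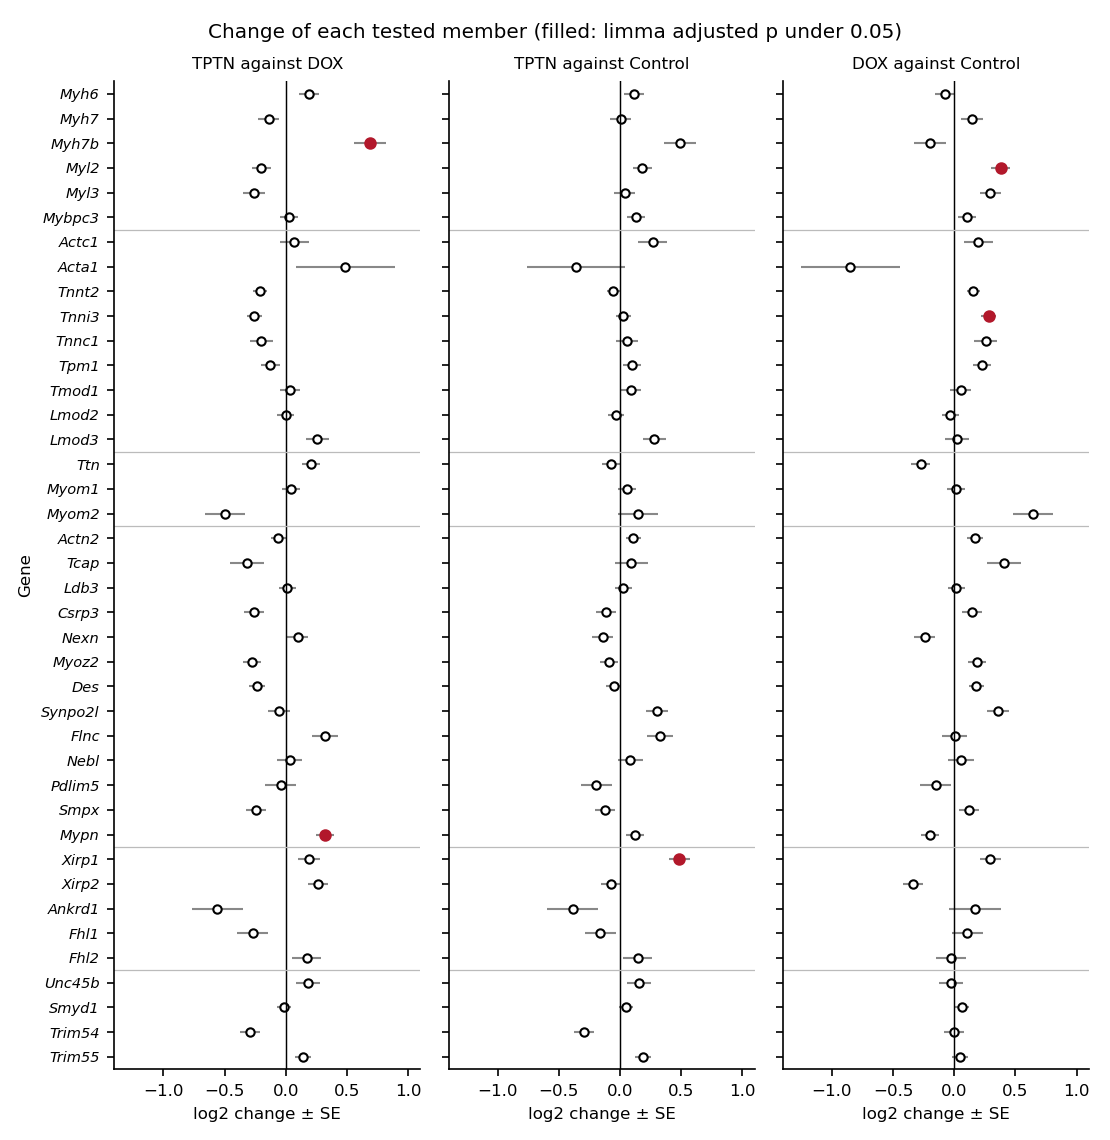
The 3 panels show, for each of the 40 tested genes in role order, the log2 change (point) with its SE (bar) in TPTN against DOX, TPTN against Control and DOX against Control hearts; filled points passed the limma threshold. Filled points are Myh7b and Mypn in the first panel, Xirp1 in the second, and Myl2 and Tnni3 in the third.

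Among the adaptors known to respond to load or injury, Xirp1 was higher in TPTN than in Control hearts and the others did not pass the test. Of all tested genes, 0.72% passed in that comparison, 2.63% in DOX against Control and 3.26% in TPTN against DOX hearts. Xirp1 (chromosome 9, 120013755 to 120023598) encodes an actin-binding repeat protein of the intercalated disc and of muscle under repair. It stood at 33.8, 31.9 and 34.9 FPKM in TPTN hearts, 28.9, 27.8 and 31.0 FPKM in DOX hearts and 26.4, 24.2 and 20.6 FPKM in Control hearts. The 3 groups did not overlap, with TPTN highest and Control lowest. Xirp1 was higher in TPTN than in Control hearts by 0.49 (SE 0.09, limma adjusted p = 0.0347). It was positive in 20 other settings, from 0.39 to 0.56, and past the threshold in 7 of them, with adjusted p from 0.0223 to 0.221. Leaving out single libraries gave changes of 0.39 to 0.56 and limma adjusted p of 0.0223 to 0.149, and the call was kept only without Control replicate 1 or DOX replicate 1. The change in DOX against Control hearts was 0.30 (SE 0.09, limma adjusted p = 0.106), and in TPTN against DOX hearts it was 0.19 (SE 0.09, limma adjusted p = 0.252). These were 0.30 and 0.18 without DOX replicate 1.

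Xirp2, a relative of Xirp1 with the same type of repeat, stood at 22.0, 23.3 and 21.9 FPKM in TPTN hearts, 18.1, 20.9 and 16.7 FPKM in DOX hearts and 24.9, 22.8 and 23.4 FPKM in Control hearts. Here DOX was lowest and overlapped neither other group, the reverse of the order of Xirp1 between DOX and Control. The change in DOX against Control hearts was -0.34 (SE 0.08, limma adjusted p = 0.0551), and in TPTN against DOX hearts it was 0.26 (SE 0.08, limma adjusted p = 0.103). These were -0.32 and 0.25 without DOX replicate 1. Ankrd1, a titin-binding ankyrin repeat protein induced by stretch, stood at 196, 149 and 117 FPKM in TPTN hearts, 183, 260 and 233 FPKM in DOX hearts and 189, 237 and 173 FPKM in Control hearts. Groups overlapped, and the change in TPTN against DOX hearts was -0.56 (SE 0.21, limma adjusted p = 0.185), and -0.70 without DOX replicate 1 (limma adjusted p = 0.111). Ankrd1 had the second largest spread between replicates, 0.29 on the log2 scale.

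Fhl1, a LIM protein that binds titin, stood at 22.5, 21.8 and 22.9 FPKM in TPTN hearts, 25.8, 33.2 and 23.5 FPKM in DOX hearts and 27.9, 26.7 and 21.5 FPKM in Control hearts. TPTN was below DOX without overlap, with a change of -0.27 (SE 0.13, limma adjusted p = 0.263), and -0.31 without DOX replicate 1. Fhl2, the LIM protein most abundant in heart, stood at 541, 600 and 553 FPKM in TPTN hearts, 422, 585 and 507 FPKM in DOX hearts and 584, 477 and 476 FPKM in Control hearts, and all groups overlapped.

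None of the 4 genes of sarcomere assembly and turnover passed the test in any comparison at an adjusted limma p under 0.05. Among all tested genes, 2.63% passed in DOX against Control, 3.26% in TPTN against DOX and 0.72% in TPTN against Control hearts. Trim54, a ubiquitin ligase of the MuRF family, stood at 92.7, 90.0 and 106 FPKM in TPTN hearts, 112, 115 and 128 FPKM in DOX hearts and 112, 126 and 117 FPKM in Control hearts. TPTN was below both other groups without overlap. The change was -0.29 in TPTN against DOX hearts (SE 0.08, limma adjusted p = 0.0815), -0.33 without DOX replicate 1, and -0.30 in TPTN against Control hearts (SE 0.08, limma adjusted p = 0.148). Trim55, of the same family, stood at 22.3, 24.9 and 22.8 FPKM in TPTN hearts, 20.6, 21.4 and 21.3 FPKM in DOX hearts and 20.4, 19.4 and 21.4 FPKM in Control hearts. It was highest in TPTN, the opposite of Trim54, with a change of 0.19 in TPTN against Control hearts (SE 0.07, limma adjusted p = 0.248). Unc45b, a myosin chaperone, averaged 35.0 ± 0.598 FPKM in TPTN, 30.7 ± 2.61 FPKM in DOX and 31.4 ± 4.63 FPKM in Control hearts (SD, n = 3 each). Smyd1, a methyltransferase needed for myofibril assembly, averaged 92.1 ± 0.145, 93.1 ± 4.60 and 89.0 ± 0.817 FPKM in the same order and was among the steadiest genes, with a spread of 0.04 on the log2 scale.

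The changes of the 40 genes varied with transcript length, which the choice of genes did not use. In DOX against Control hearts, the median change was 0.26 for the 9 genes whose longest listed transcript was under 1500 bases, 0.08 for the 10 genes of 1500 to 3000 bases, 0.08 for the 14 genes of 3000 to 6000 bases and -0.08 for the 7 genes of at least 6000 bases. Over all tested genes these medians were 0.14, 0.08, 0.02 and -0.02. In TPTN against DOX hearts the order was the opposite, with -0.24, -0.06, -0.00 and 0.21 for the 40 and -0.13, -0.05, 0.02 and 0.08 for all genes. In TPTN against Control hearts the values were 0.04, -0.06, 0.10 and 0.09 for the 40 and 0.01, 0.02, 0.05 and 0.06 for all genes. The pattern in the sarcomere genes thus had the direction of the pattern over all genes in the first pair of comparisons.

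Across the 40 genes, Spearman's rho between length and change was -0.39 in DOX against Control, 0.50 in TPTN against DOX and 0.23 in TPTN against Control hearts. Over 12490 genes it was -0.31, 0.38 and 0.12. These describe genes within the same libraries, which are not independent replicates, and carry no p. Without DOX replicate 1 the values of the 40 were -0.49 and 0.60 in the 2 comparisons with DOX. Myl2 (889 bases), Tnni3 (912 bases), Ttn and Xirp2 lie at the ends of this range. When the trend of change on length over all genes was removed, a setting chosen after seeing the data, 0 of the 40 genes passed in any comparison, where 0.953% of all genes did in DOX against Control, 1.49% in TPTN against DOX and 0.889% in TPTN against Control hearts. The change of Myl2 in DOX against Control hearts was 0.23 (limma adjusted p = 0.127). Under it Myh7b changed by 0.62 in TPTN against DOX hearts (limma adjusted p = 0.0515), and Ttn by -0.10 in DOX against Control hearts. At an unadjusted limma p under 0.05 this setting left 7 higher and 4 lower in DOX against Control, 5 and 7 in TPTN against DOX, and 7 and 1 in TPTN against Control hearts, where 16.3%, 19.5% and 14.0% of all genes lay under that p. Over all genes the counts were 1054 higher and 987 lower, 1195 and 1245, and 874 and 875 in the same order.

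**Figure D5:**
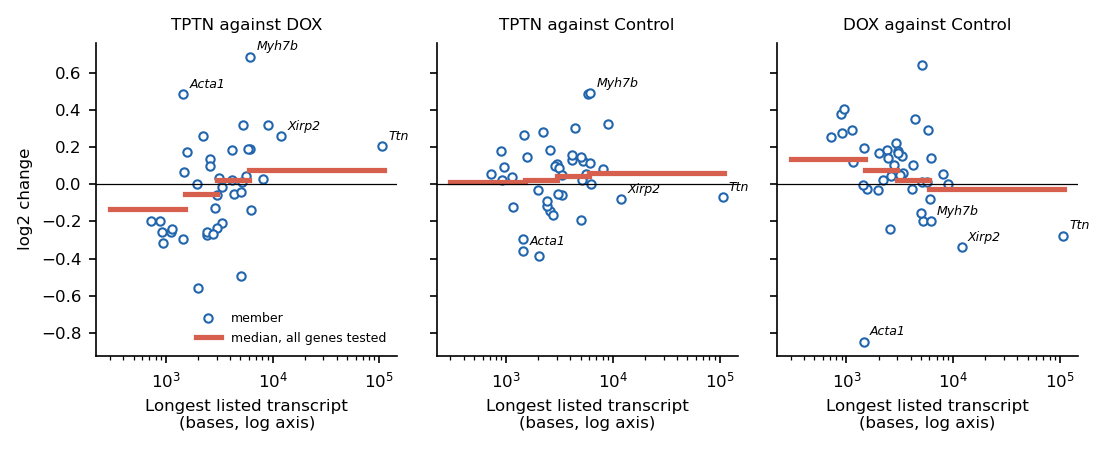
Each point is one of the 40 genes, with the length of its longest listed transcript in bases (log axis) and its log2 change in TPTN against DOX, TPTN against Control and DOX against Control hearts; red bars are medians of all tested genes in 4 length classes. Short transcripts lie low and long ones high in the left panel, and the order is the opposite in the right panel.

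Further genes of the same pathway were tested in lists drawn up for this description, with earlier results of these data known. Their counts beside all genes are therefore a description only. Of 30 other sarcomere genes, 26 were tested, and 0 passed in DOX against Control (3 higher and 3 lower at an unadjusted limma p under 0.05), 1 was lower in TPTN against DOX (3 higher and 4 lower at that p), and 0 passed in TPTN against Control hearts (7 higher and 2 lower at that p). Over all tested genes, 18.0%, 20.6% and 13.1% lay under that p in these comparisons, and 2.63%, 3.26% and 0.72% passed the threshold. Higher and lower counts over all genes are given further above. The 1 was Lrrc10, a heart-specific leucine-rich repeat protein at the Z-disc. It stood at 43.4, 42.0 and 47.7 FPKM in TPTN hearts, 58.1, 82.9 and 67.2 FPKM in DOX hearts and 57.8, 70.2 and 73.0 FPKM in Control hearts. TPTN was below both other groups without overlap, with changes of -0.62 against DOX (SE 0.13, limma adjusted p = 0.0351), -0.74 without DOX replicate 1, and -0.58 against Control (SE 0.13, limma adjusted p = 0.0770).

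Of 22 chaperones and turnover genes of muscle, 21 were tested. Klhl40, which stabilises thin filament proteins, was at 5.21, 5.81 and 6.11 FPKM in DOX hearts, against 4.03, 3.03 and 3.67 FPKM in Control hearts. It was higher in DOX hearts by 0.56 (SE 0.09, limma adjusted p = 0.0200), without overlap, and by 0.61 without DOX replicate 1. TPTN hearts, at 4.51, 5.13 and 5.13 FPKM, also lay above every Control library, with a change of 0.38 (SE 0.09, limma adjusted p = 0.114). Ubb, a polyubiquitin gene, was at 175, 186 and 176 FPKM in TPTN hearts, against 244, 220 and 240 FPKM in DOX hearts. It was lower in TPTN hearts, with a change of -0.39 (SE 0.08, limma adjusted p = 0.0286), and -0.36 without DOX replicate 1. Control hearts, at 192, 230 and 206 FPKM, also lay above every TPTN library. The change in TPTN against Control hearts was -0.22 (SE 0.08, limma adjusted p = 0.233). In TPTN against Control hearts 0 of the 21 passed. All tested genes passed at 2.63% in DOX against Control, 3.26% in TPTN against DOX and 0.72% in TPTN against Control hearts. At an unadjusted limma p under 0.05, 5 were higher and 0 lower in DOX against Control, 3 and 3 in TPTN against DOX, and 5 and 2 in TPTN against Control hearts, beside the same shares of all genes as above (18.0%, 20.6% and 13.1%).

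Of 20 transcription factors that control muscle genes, 19 were tested. Myocd, the coactivator of serum response factor, was at 4.52, 4.56 and 6.09 FPKM in TPTN hearts, against 3.74, 3.03 and 2.75 FPKM in DOX hearts and 3.21, 3.05 and 3.32 FPKM in Control hearts. It was higher in TPTN than in DOX hearts by 0.54 (SE 0.11, limma adjusted p = 0.0352), and by 0.63 without DOX replicate 1. The change in TPTN against Control hearts was 0.52 (SE 0.11, limma adjusted p = 0.0687). Gata4, a zinc finger factor of heart muscle, was at 22.4, 23.6 and 21.8 FPKM in TPTN hearts, against 22.2, 18.8 and 21.0 FPKM in DOX hearts and 17.0, 16.9 and 15.6 FPKM in Control hearts. It was higher in TPTN than in Control hearts by 0.44 (SE 0.07, limma adjusted p = 0.0275), and DOX also lay above Control without overlap. Of all tested genes, 3.26% passed in TPTN against DOX and 0.72% in TPTN against Control hearts. In DOX against Control hearts 0 of the 19 passed, beside 2.63% of all tested genes. At an unadjusted limma p under 0.05, 5 were higher and 1 lower there, 1 and 2 in TPTN against DOX, and 2 and 0 in TPTN against Control hearts, again beside 18.0%, 20.6% and 13.1% of all genes. Of these 5 called genes, Klhl40 stayed past the threshold in 14 of 20 other settings, Gata4 in 13, Myocd in 11, and Lrrc10 and Ubb in 9 each. None of the 5 changed sign, though several of the settings cannot alter it. Klhl40 lost its call without Control replicate 2 or 3 or DOX replicate 2 or 3, and Gata4 without Control replicate 2 or 3 or any TPTN library. Lrrc10, Ubb and Myocd lost theirs without DOX replicate 2 or 3 or any TPTN library, and Myocd also without Control replicate 3, at limma adjusted p of at most 0.115.

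Markers of other cell types were read beside these genes. Fibroblast markers summed to 99.96 to 112 FPKM in TPTN, 89.7 to 126 FPKM in DOX and 92.9 to 94.7 FPKM in Control libraries. Of these 9 markers, 1 passed limma's threshold as higher in TPTN against DOX and 1 in TPTN against Control hearts. Beside this, 0.792% and 0.336% of all tested genes were called higher in these comparisons. Endothelial markers summed to 212 to 257 FPKM in TPTN, 210 to 246 FPKM in DOX and 224 to 233 FPKM in Control libraries, with 1 of 8 higher in each of the same comparisons. Smooth muscle markers summed to 384 to 410 FPKM in TPTN, 417 to 474 FPKM in DOX and 372 to 420 FPKM in Control libraries. Of these markers, 0 of 7 passed the threshold. In DOX against Control, TPTN against DOX and TPTN against Control hearts, 2.63%, 3.26% and 0.72% of all tested genes passed. The 7 markers include Des, also among the sarcomere and Z-disc genes above, which made up most of the sum in every library. Des alone was at 297 to 318 FPKM in TPTN, 338 to 376 FPKM in DOX and 303 to 323 FPKM in Control libraries. The higher sums in DOX than in TPTN libraries thus mainly follow Des. Acta2, the next most abundant of these markers, overlapped between all groups. Smtn, Cnn1 and Lmod1 overlapped between DOX and TPTN libraries. Tagln and Myh11 were higher in DOX than in both other groups without overlap. Tagln was at 11.2 to 15.6 FPKM in DOX, and at most 9.69 FPKM in TPTN and 8.32 FPKM in Control libraries. Myh11 was at least 3.93 FPKM in DOX, and at most 3.85 FPKM in TPTN and 3.33 FPKM in Control libraries. A difference in smooth muscle content was not tested. Erythroid markers ranged from 447 to 603 FPKM in TPTN, 331 to 971 FPKM in DOX and 396 to 944 FPKM in Control libraries, and macrophage markers from 73.3 to 78.2, 62.9 to 83.7 and 73.2 to 84.3 FPKM in the same order. Their part in the results above was not tested.

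The authors' deposited table gives p- and q-values without naming the groups behind them. In the authors' deposited table, 15 of the 41 genes are marked yes, where 9.89% of all genes and 21.4% of the genes tested here are. Of these, the authors' deposited table lists 4 that have a q-value under 0.05, namely Myh7b (2.56e-05), Xirp1 (0.00487), Myom2 (0.00823) and Synpo2l (0.0118), where 7.87% of the genes tested here do. Myl2, Tnni3 and Mypn are marked yes in the authors' deposited table, with q-values of 0.0656, 0.140 and 0.0905.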

How the data were processed

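Messenger RNA of 9 mouse heart libraries was measured, and libraries were grouped by their titles and treatment labels. Per the submitters' processing notes, cutadapt 1.9, HISAT2 2.0.4, StringTie 1.3.4d, DESeq2, edgeR and the genome GRCm38 were used, without stating which step each tool did. The deposited values are FPKM per gene, per the file headers, together with p-values and q-values of the authors' own comparison. Libraries were made from polyadenylated RNA of high integrity and were strand-marked, per the labels' protocols. FPKM divides by length and by the library total, so abundant mitochondrial transcripts shift all other values. Read counts were not used here, since at most 10.8% of low values per library were whole multiples of a guessed worth of 1 read. The tolerance was 0.05, and values unrelated to that worth would give a similar share, so depth is not known.

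Values were tested as log2(FPKM + 1) with limma 3.58.1 (R 4.3.3, data.table version 1.17.8) in 12500 genes with a mean of at least 0.5 FPKM. One fit held a mean per group, with a mean-variance trend and robust empirical Bayes, and p-values of either direction were Benjamini-Hochberg adjusted over all genes. A pseudocount of 1 understates changes of low genes. Shares of paired isoforms were compared by exact two-sided permutation. On simulated data, the test was checked for recovery of known changes. Positions and transcript lengths are from GENCODE M21 on GRCm38, matched by identifier for 29154 of 29237 genes, and the length is that of the longest listed transcript. Promoter windows are from RefSeq on GRCm38.p6.

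The 41 genes and the further lists were chosen with earlier results of these data known. Of the 41, 24 are given by library under a rule: isoform pairs, genes known to respond to load, every gene past the threshold, the 4 smallest p-values per comparison, the highest and lowest level per role and the 4 largest spreads; other genes named, including Tnnc1, which is also given by library, were chosen after their values were seen. Up to 4 genes with the smallest p in each further list could be named. Other settings covered the pseudocount, the filter, 3 rescalings, robust estimation, the groups in the fit, a replicate block, removal of length and GC trends, and leaving out each library. The filter, robust estimation, the groups in the fit and the block alter the p but not a gene's change. The same holds for leaving out a library of a group outside the comparison. Python 3.11.15, pandas 2.3.3, numpy 2.4.6, scipy 1.17.1 and matplotlib 3.10.9 were used.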

Additional observations from a re-analysis of the deposited data

How the results depend on the processing

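Counts of sarcomere genes past the limma threshold were small and moved with most settings, and limits of 3 libraries per group apply throughout. In DOX against Control hearts the count of 2 became 0 with no filter on low values, with only the 2 groups compared, and with the length trend or the length and GC trends removed. It became 1 with quantile normalization (Xirp2 lower) and 4 with a minimum mean of 1 FPKM (3 higher and 1 lower). Over all tested genes these settings called 2, 176, 119, 68, 143 and 393 in the same order, in place of 329. An equal count could hold other genes. Median ratios gave 2, but these were Xirp2 and Ttn, both lower, with 173 calls over all genes. Without mitochondrial genes and copies in the sum 3 were lower and 0 higher, with 270 calls over all genes. Between TPTN and DOX hearts the count of 2 became 0 with no filter and with the length trend removed, 1 with the length and GC trends removed, and 7 without mitochondrial genes and copies in the sum, with 2, 186, 200 and 671 calls over all genes in place of 407. In TPTN against Control hearts the count of 1 became 0 with no filter, median ratios, only the 2 groups compared, and the length trend or both trends removed, with 6, 103, 69, 111 and 99 calls over all genes in place of 90. Leaving out single libraries gave counts from 0 to 4, from 0 to 5 and from 0 to 2 in the 3 comparisons, in the order above, with 2 to 314, 45 to 468 and 21 to 148 over all genes, and the cause was not tested. With no filter on low values, 13 genes were higher and 4 lower at an unadjusted limma p under 0.05 in DOX against Control, 6 and 11 in TPTN against DOX, and 6 and 1 in TPTN against Control hearts, where 9.65%, 11.2% and 7.82% of all genes lay under that p. Over all genes the counts were 2085 higher and 737 lower, 1348 and 1913, and 1441 and 846 in the same order.

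With the replicate number as a block, limma called 1 gene in DOX against Control (Myom2, adjusted p = 0.0343), 1 in TPTN against DOX (Myh7b, adjusted p = 0.0436) and 0 in TPTN against Control hearts, beside 170, 159 and 62 over all genes. Same-numbered libraries did not deviate together, with correlations over genes from -0.26 to 0.02, so the numbers were not taken as pairs. Some TPTN and Control libraries of different number did. These were TPTN 1 with Control 3 (0.40), TPTN 2 with Control 1 (0.29) and TPTN 3 with Control 2 (0.23). The other pairs of different number between these groups ran from -0.25 to -0.0011. A structure that the labels do not name was not tested.

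These changes crossed 0. Myh7 in TPTN against Control hearts was -0.0469 with median ratios, -0.0263 without mitochondrial genes in the sum, -0.0551 with the length trend and -0.0685 with the length and GC trends removed, and -0.0727 to 0.0863 without single libraries. It was -0.0194 in DOX against Control without mitochondrial genes in the sum, and 0.0143 in TPTN against DOX with quantile normalization. Tnni3 in TPTN against Control hearts was -0.0274 with median ratios, -0.00652 without mitochondrial genes in the sum and -0.0178 to 0.0596 without single libraries. Csrp3 in DOX against Control hearts was -0.0115 with quantile normalization and -0.0239 without mitochondrial genes in the sum, and Tnnt2 was -0.0110 under the second of these. With quantile normalization, Myh6 was -0.0777 in TPTN against Control and Des 0.0231 in TPTN against DOX hearts. Ttn in TPTN against DOX hearts was -0.0125 with the length trend and -0.0173 with both trends removed. Actc1 in TPTN against DOX hearts was -0.0518 to 0.202 without single libraries. For the Tnni1 share, log2 ratios gave -0.121, 0.120 and -0.000711 in DOX against Control, TPTN against DOX and TPTN against Control, and TPTN against DOX was -0.0146 to 0.000117 points without single libraries.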
